A study of Mus musculus with 12 samples.

Results

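Livers of mice with MYC-driven tumors that were fed a diet without tryptophan (Trp) were compared with livers of such mice fed the control diet, using the read counts of all genes. The 6 livers were chosen by their labels, 3 mice on the control diet and 3 mice on the No-Trp diet, of 12 libraries in the series, and 14122 of 24062 gene symbols had enough reads to be tested. Genes were read through 45 gene lists that fall into 4 programs, namely plasma proteins, drug metabolism, nutrient sensing and the mixture of cell types and liver states. These lists hold 906 genes, of which 802 were tested and 104 were too low to test. Of the 906, 73 stand in 2 or more lists, so the counts of lists and programs below share genes.

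All 6 mice carried the same transgenes, TRE-MYC and LAP-tTA, on the FVB background. The LAP promoter drives tTA in hepatocytes, and tTA turns on the human MYC transgene once doxycycline is withdrawn. The breeders drank water with doxycycline (1 mg/mL), and litters were taken off it at birth, so MYC was on from birth in both groups. The mice then received the complete diet (mice 101, 102 and 103, here the control mice) or the No Trp diet (mice 105, 107 and 108) for 21 days. The labels give an age of 45 days for the comparison with wild type males, and no age for the diet groups. The tissue is labelled as liver, and the sources do not say how much of each piece was tumor. Each library is 1 mouse, so the spread between libraries is the spread between animals. Both the diet and whatever the diet does to tumor burden are part of the difference between the groups and cannot be told apart.

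Reads on genes numbered 14865881 to 23751118 per liver. The Y-linked gene Ddx3y held between 1366 and 2424 normalized counts in all 6 mice, and Xist, which silences the X chromosome in female cells, between 155 and 269. Mouse Myc held 696, 527 and 569.6 normalized counts in the control mice and 613, 1415 and 2348 in the No-Trp mice, and the groups overlapped. Reads of the human transgene were not analysed here, and whether the counts of Myc include some of them was not tested. The paper counted transgene reads by a separate alignment and reports lower MYC expression on the No-Trp diet than on the control diet. The precursor ribosomal RNA Rn45s took 12.1% of the counts of control mouse 101, 2.22% of control mouse 102 and at most 0.602% of the other 4, and with all RNAs that lack a poly(A) tail left out the calls below were 1304 higher and 1027 lower in place of 1311 and 1026. Control mouse 102 stood apart from the other control mice. It was the highest control in 34.9% of all tested genes but in 89.9% of the 139 tested plasma protein genes and 80.9% of the 204 tested drug metabolism genes. Mice 101 and 108 are marked as resubmitted.

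Hepatocytes make most proteins of the blood plasma, and they hold the cytochromes P450 and the conjugating enzymes that clear drugs, steroids and toxins. They degrade surplus Trp through TDO2, and they answer to feeding and fasting through nuclear receptors such as PPARα. When an amino acid is short, uncharged tRNA activates the kinase GCN2, translation slows and the factor ATF4 turns on genes for amino acid uptake, amino acid synthesis and tRNA charging. Amino acid levels also reach the kinase mTORC1 through Sestrins and Rag GTPases at the lysosome. Liver tissue further contains bile duct cells, sinusoidal endothelium, Kupffer cells, stellate cells and blood cells, and in young mice it can contain precursors of red blood cells.

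Of all 14122 genes tested, 1311 (9.28%) were called higher on the No-Trp diet and 1026 (7.27%) lower, where a call needed an adjusted p (Benjamini-Hochberg, edgeR's quasi-likelihood test) no larger than 0.05 and a log2 fold change of 1 or more in either direction. In the plasma protein program 41 of 139 tested genes rose and 4 fell, with a median log2 fold change of 1.23. The drug metabolism program had 82 rises and 3 falls among 204 genes and a median of 1.56. Nutrient sensing had 47 rises and 5 falls among 206 genes and a median of 0.49, and the cell mixture lists had 67 rises and 30 falls among 311 genes and a median of 0.22. The median over all tested genes was 0.00. In the plot of log2 fold changes by list, the Cyp2a and Cyp2b genes have the highest median, and the erythroid genes have the lowest after the 3 tested major urinary protein genes. In these bulk samples, fewer cells of a type and less RNA per cell cannot be told apart.

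**Figure D1:**
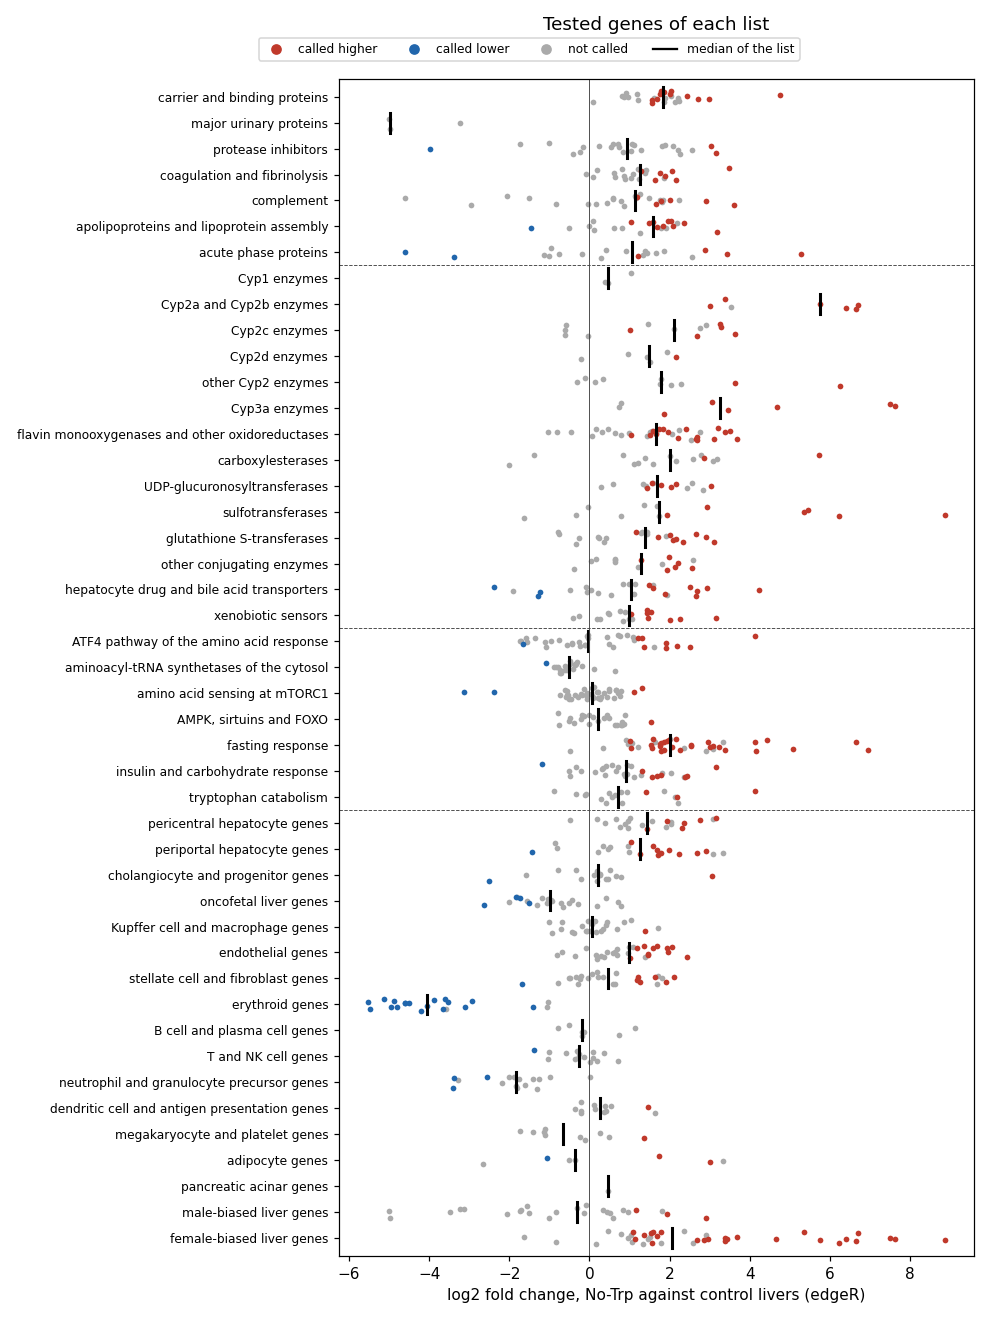
Log2 fold change of each tested gene on the No-Trp diet against the control diet (x axis, edgeR), by gene list (y axis), with called genes in red (higher) or blue (lower), the others in grey and the median of each list as a black bar. Dashed lines separate plasma proteins, drug metabolism, nutrient sensing and cell mixture from top to bottom. The 21 erythroid genes have a median of −4.05 and the 41 fasting genes a median of 2.00.

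The counts of calls rested on single mice, since both groups held only 3. Of the 103 called genes chosen by the rule for named genes, 3 kept their call when each mouse was left out in turn, namely Tox, Cyp2b9 and Cyp4a31. The part of that rule that ranks all genes by size took only genes whose groups did not overlap. For genes named by rank, these 3 included, the lack of overlap was therefore a condition of naming and not a finding. Without control mouse 103, which left mice 101 and 102 as the controls, 0 plasma protein genes, 1 drug metabolism gene, 3 nutrient sensing genes and 3 cell mixture genes were called higher. Without control mouse 101 these counts were 4, 18, 12 and 19. Without control mouse 102 they were 86, 148, 70 and 106, and 33 of the 77 tested genes chosen by the rule that had not been called were then called. Where mouse 102 was the highest control, leaving it out tends to raise the fold change, so calls gained that way are not separate support. Of the 103 called genes, 17 lost their call in 5 of these fits. Among them Tdo2, Apoa5, F5, C4bp, Hpx, C3, Esr1 and Apob kept it only without mouse 102. All 2337 called genes kept their sign in each fit in which they were tested, but these fits reuse the livers from which the genes were called. Kept signs are therefore not separate support. In what follows, normalized counts are given in the order of control mice 101, 102 and 103 and then No-Trp mice 105, 107 and 108.

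Genes of carrier and binding proteins were called in 12 of 26 tested, all of them higher, and all 26 had a positive log2 fold change, with a median of 1.83. The thyroxine-binding globulin gene Serpina7 (chromosome X, 139079257 to 139085236, minus strand) changed most among them. It held 69.5, 232 and 202 normalized counts in the control mice and 3468, 5132 and 5042 in the No-Trp mice (log2 fold change 4.76, standard error 0.48, adjusted p = 0.0108). Every No-Trp mouse lay above every control mouse, by a factor of more than 10. Rbp4 (chromosome 19, 38116629 to 38125281, minus strand), the carrier of vitamin A, went from 19959, 31762 and 15193 to 61349, 120681 and 50404 normalized counts (log2 fold change 1.80, standard error 0.46, adjusted p = 0.0326). Gc (chromosome 5, 89417522 to 89457898, minus strand), the vitamin D binding protein, went from 40203, 65419 and 35019.5 to 118050.0, 181616 and 114851 (log2 fold change 1.56, standard error 0.39, adjusted p = 0.0314), and Hpx, which binds free heme, from 11721, 41385 and 10956 to 87493, 111875 and 56966 (log2 fold change 2.00, standard error 0.60, adjusted p = 0.0478). In all 3 of these genes control mouse 102 was the highest control and No-Trp mouse 107 the highest of its group, and the groups did not overlap.

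Albumin itself did not pass the test. Alb (chromosome 5, 90460897 to 90476602, plus strand) held 114068, 463500.0 and 83342 normalized counts in the control mice and 721258, 1638840.0 and 556268 in the No-Trp mice. The groups did not overlap, control mouse 102 lay nearest to the No-Trp mice, and the log2 fold change of 2.14 had a standard error of 0.83 (adjusted p = 0.0942). Without mouse 102 Alb was called higher, with a log2 fold change of 3.29 (adjusted p = 0.0147), and DESeq2 called it with all 6 mice (adjusted p = 0.00569). Ttr, the other carrier of thyroxine, rose (log2 fold change 1.76, standard error 0.43, adjusted p = 0.0302), as did Ahsg, the gene of fetuin-A (adjusted p = 0.031), and Sepp1, which carries selenium (log2 fold change 2.04, standard error 0.49, adjusted p = 0.0291). Azgp1 rose with a log2 fold change of 2.99. These last 4 genes were not among the genes chosen by rule and were picked after their values were seen.

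Of 24 coagulation and fibrinolysis genes, 7 rose and 0 fell, with a median log2 fold change of 1.26. F5, which encodes the cofactor of prothrombin activation, went from 486, 4792 and 775 to 19169, 37709 and 11307 normalized counts (log2 fold change 3.49, standard error 0.98, adjusted p = 0.0422). Prothrombin, F2, went from 10292, 17161 and 8838 to 32385, 64576 and 26026 (log2 fold change 1.76, standard error 0.44, adjusted p = 0.0312). Control mouse 102 was the highest control for both, and still lay below each No-Trp mouse. The fibrinogen gene Fgb held 28494, 41853 and 35134 and then 50901, 105494 and 61140.2 normalized counts without passing the test (adjusted p = 0.0737), and Plg and F11 overlapped between the groups. Without control mouse 102 Plg and F11 were called higher, with log2 fold changes of 2.75 and 1.96.

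Of 26 tested complement genes 6 rose and 0 fell, with a median log2 fold change of 1.14. C3, the central protein of all complement pathways, went from 35709.8, 105655 and 48676 to 187061, 313387 and 150960.0 normalized counts (log2 fold change 1.78, standard error 0.54, adjusted p = 0.0486). C4bp (chromosome 1, 130634773 to 130661632, minus strand), an inhibitor of the classical pathway, went from 493, 5116 and 475 to 22508, 33828 and 17855 (log2 fold change 3.61, standard error 1.02, adjusted p = 0.0435). Cfhr2, which is related to factor H and was picked after its values were seen, had a log2 fold change of 2.00. The membrane attack complex genes C6, C8a and C9 were not called. C9 held 143, 5168 and 181 normalized counts in the control mice and 68.4, 93.7 and 63 in the No-Trp mice, so that every No-Trp mouse lay below the controls (log2 fold change −4.60, standard error 1.48, adjusted p = 0.0599). Without control mouse 102 it was called lower, with a log2 fold change of −1.12 (adjusted p = 0.039). C6 and C8a were far higher in control mouse 102 (3053 and 7086 normalized counts) than in any other mouse. Without it their log2 fold changes were 0.83 and 0.17, and neither was called. Among the remaining mice the groups overlapped for C8a, whereas for C6 the control mice, with 121 and 179 normalized counts, lay below the No-Trp mice, with 328, 182 and 295.

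Of 24 protease inhibitor genes 2 rose and 1 fell, with a median log2 fold change of 0.94. Serpina3m, a member of the antichymotrypsin cluster, rose from 116, 889 and 243 to 3279, 4963 and 2921 normalized counts (log2 fold change 3.16, standard error 0.74, adjusted p = 0.0286). A2m (chromosome 6, 121635376 to 121679227, plus strand), the broad protease trap alpha-2-macroglobulin, fell from 899.9, 4955 and 2146 to 285, 130.3 and 87.3 (log2 fold change −3.98, standard error 0.74, adjusted p = 0.0202). All No-Trp mice lay below all control mice for A2m. Antithrombin, Serpinc1, had no overlap between groups but missed the threshold (log2 fold change 1.12, adjusted p = 0.0513), which it passed without control mouse 102 (1.32, adjusted p = 0.0346). Serpina genes and the major urinary proteins lie in clusters of close copies, so reads could be split between members.

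Apolipoproteins rose in 10 of 21 tested genes, and 1 gene of the list fell. The median log2 fold change was 1.58. Apob, the structural protein of VLDL, went from 14456, 42587 and 19169 to 76737, 137352 and 58831 normalized counts (log2 fold change 1.84, standard error 0.53, adjusted p = 0.0429). Apoa5, an activator of lipoprotein lipase, went from 1533, 11984 and 1564 to 38096, 65154 and 33703 (log2 fold change 3.18, standard error 0.90, adjusted p = 0.0426). Apoa4 went from 9627, 19279.5 and 14176 to 38655, 48838 and 51342 (log2 fold change 1.69, standard error 0.33, adjusted p = 0.0209), and its highest control was again mouse 102. Mttp, which loads lipid onto Apob, was higher in each No-Trp mouse without passing the test (log2 fold change 0.62, adjusted p = 0.0728).

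The acute phase list split by gene. Of 20 tested genes 4 rose and 2 fell, with a median log2 fold change of 1.07. Apcs (chromosome 1, 172893961 to 172895041, minus strand), which encodes serum amyloid P component, had the largest rise of all plasma protein genes. Its normalized counts were 989, 1532 and 682 in the control mice and 39881, 58573 and 25918 in the No-Trp mice (log2 fold change 5.28, standard error 0.49, adjusted p = 0.00761). The lowest No-Trp mouse held more than 10 times the highest control. The serum amyloid A genes Saa1 and Saa2, which inflammation induces, went the other way. Saa1 fell from 46.6, 189.8 and 166 to 14.7, 17.1 and 5.72 (log2 fold change −3.38, standard error 0.64, adjusted p = 0.02), and Saa2, picked after its values were seen, from 25.5, 49 and 102 to 6.31, 0 and 0 (log2 fold change −4.61, standard error 1.05, adjusted p = 0.0263). Crp held 816, 3525 and 1124 and then 3961, 7084 and 3647 normalized counts and did not pass (adjusted p = 0.11), but was called without control mouse 102 (log2 fold change 2.32, adjusted p = 0.00634), and the alpha-1-acid glycoprotein gene Orm1 overlapped. The hepcidin genes Hamp and Hamp2, which control iron export and were also picked after their values were seen, rose with log2 fold changes of 2.89 and 3.43.

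Of 20 major urinary protein genes only 3 had enough reads to be tested, and 0 of them were called. Mup20, the male pheromone darcin, held 1039.8, 7107 and 543 normalized counts in the control mice and 455, 257 and 217 in the No-Trp mice (log2 fold change −3.22, standard error 0.98, adjusted p = 0.0521), and was called lower without control mouse 102 (log2 fold change −1.35, adjusted p = 0.0394). The summed normalized counts of the detected genes of this family were 2019, 47467 and 1134 in the control mice and 754, 949 and 524 in the No-Trp mice. The control level thus lay mainly in mouse 102.

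**Figure D2:**
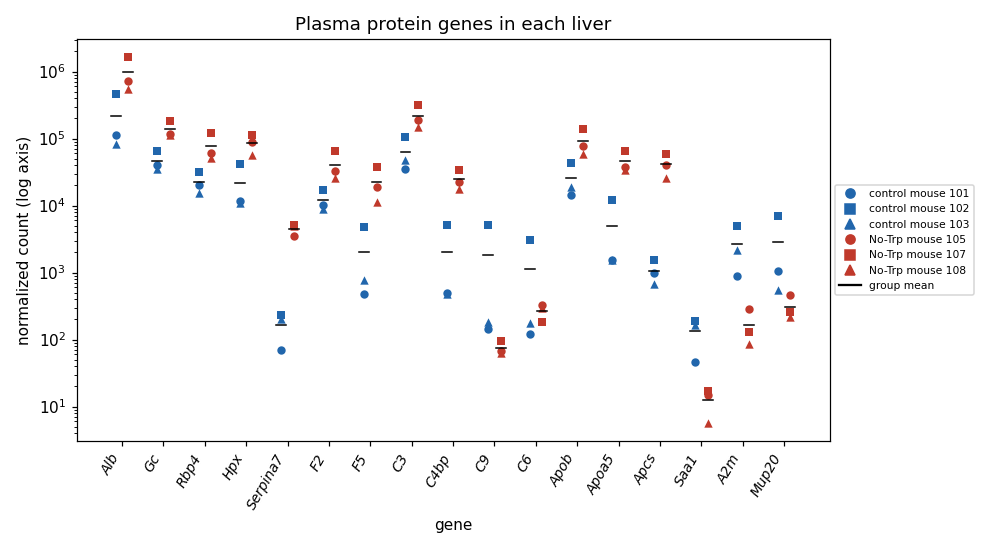
Normalized counts (y axis, log scale) of 17 plasma protein genes (x axis) in each liver, with control mice in blue, No-Trp mice in red, a symbol for each mouse and a black bar at each group mean. No-Trp mice lie above the controls for genes such as Apcs and Serpina7 and below them for Saa1 and A2m, and control mouse 102 lies far above the other controls for C9 and C6.

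Liver promoters often carry sites for the factor HNF1. Promoters of 300 bases from RefSeq (GRCm38.p6) were available for 108 tested plasma protein genes, and the letters GTTAATNAT on either strand stood in 14 of them, which is 13%. The share was 0.836% of all 27025 promoters, 0.669% of the promoters of tested genes, 1.46% of those called higher and 0.359% of those called lower. Among the 14 genes, 4 rose (Afm, C4bp, Cfhr2 and Gc), 1 fell (A2m) and 9 were not called, so the letters stood before genes of every outcome. The stretches around them are shown for 4 genes, with the matching letters in capitals, read 5′ to 3′ on the strand of the gene and ending before the start that RefSeq gives it. Alb and Afp are neighbours on chromosome 5 and encode the adult and the fetal carrier of the plasma. Alb lies at chr5:90460788-90460869 (plus strand), Afp at chr5:90490559-90490667 (plus strand), Gc at chr5:89457899-89458000 (minus strand) and C4bp at chr1:130661624-130661732 (minus strand). The last bases of the C4bp stretch lie inside the gene as GENCODE places it, since its start there is further upstream.
Alb: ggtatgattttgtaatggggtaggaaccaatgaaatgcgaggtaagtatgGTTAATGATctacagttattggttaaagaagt
Afp: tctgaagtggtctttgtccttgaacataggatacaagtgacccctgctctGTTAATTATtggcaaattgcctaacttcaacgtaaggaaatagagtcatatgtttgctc
Gc: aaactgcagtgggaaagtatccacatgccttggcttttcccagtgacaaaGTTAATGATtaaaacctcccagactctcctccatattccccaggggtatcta
C4bp: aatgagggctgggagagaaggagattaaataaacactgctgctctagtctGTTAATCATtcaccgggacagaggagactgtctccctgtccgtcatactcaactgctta
Although Alb and Afp both carry the letters, their differences between the diets had opposite signs. Afp held 48512, 14866 and 31495 normalized counts in the control mice and 8709, 1638 and 13101 in the No-Trp mice (log2 fold change −2.02, standard error 0.76, adjusted p = 0.0915), while Alb was higher in each No-Trp mouse, and neither passed the test. Without control mouse 102 both were called, Alb higher as given above and Afp lower (log2 fold change −2.36, adjusted p = 0.0496). A match is a description of the letters and does not show that a factor binds there.

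Genes of the Cyp2a and Cyp2b families had the highest median of the drug metabolism lists. Of 7 tested genes 6 rose and 0 fell, with a median log2 fold change of 5.76. Cyp2b9 (chromosome 7, 26173411 to 26210661, plus strand), a steroid and drug hydroxylase that is female-biased in mouse liver, held 73.9, 63.3 and 109 normalized counts in the control mice and 5023, 13781 and 6900.2 in the No-Trp mice (log2 fold change 6.70, standard error 0.51, adjusted p = 0.00432). Cyp2b13 went from 6.16, 7.14 and 5.15 to 362, 1034 and 469 (log2 fold change 6.65, standard error 0.53, adjusted p = 0.00517) and Cyp2a22 from 25.5, 70.4 and 30.9 to 2421, 4971 and 3321 (log2 fold change 6.41, standard error 0.51, adjusted p = 0.00517). In these genes the 3 control mice, mouse 102 included, lay far below the No-Trp mice, although mouse 102 was the highest control for Cyp2a22. Cyp2b10, the classical target of the receptor CAR, was low throughout, with 2.64, 5.1 and 3.68 and then 15.8, 75.4 and 30 normalized counts (log2 fold change 3.38, standard error 0.70, adjusted p = 0.0232). Cyp2a5 overlapped, with 334, 2146 and 387 in the control mice and 1944, 3716 and 27596 in the No-Trp mice, the highest value being that of mouse 108, and was called without control mouse 102 (log2 fold change 4.93, adjusted p = 0.0287). Members of these families share long stretches of sequence, so that counts of single members are uncertain.

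Cyp3a genes rose in 6 of 8 tested members and fell in 0, with a median log2 fold change of 3.27. Cyp3a11, the main drug-oxidizing member, went from 3197, 8329 and 1759.7 to 30449, 51784 and 28981 normalized counts (log2 fold change 3.07, standard error 0.61, adjusted p = 0.0216). The smaller gene Cyp3a59 went from 73.9, 194 and 53.7 to 1666, 4356 and 2196 (log2 fold change 4.69, standard error 0.63, adjusted p = 0.0142) and Cyp3a13 from 344, 619 and 367 to 1188, 2023 and 1638 (log2 fold change 1.87, standard error 0.30, adjusted p = 0.0171). The groups did not overlap in any of these. In the Cyp2c family 5 of 13 genes rose and 0 fell, led by Cyp2c38, with 147, 239.8 and 217 and then 1875, 4057 and 1535 normalized counts (log2 fold change 3.63, standard error 0.43, adjusted p = 0.0127), whereas Cyp2c29 overlapped (adjusted p = 0.17) and was called without control mouse 102 (log2 fold change 4.99, adjusted p = 0.0256).

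Other P450 genes that are typical of adult liver were not called, and control mouse 102 already held high levels of them. Cyp1a2, which metabolizes caffeine, held 324, 4106 and 180.3 and then 2585, 3209.8 and 278 normalized counts. Cyp2e1, which oxidizes ethanol, held 2805, 47869 and 4440.2 and then 57734, 121125 and 48228 (adjusted p = 0.199). Cyp2f2 held 493, 8258 and 406 and then 3585, 4487 and 3588. In each of the 3, mouse 102 exceeded both other controls by a factor of more than 10, and for Cyp1a2 and Cyp2f2 it exceeded every No-Trp mouse. Without mouse 102 Cyp2e1 and Cyp2f2 were called higher, with log2 fold changes of 4.37 and 3.10 (adjusted p = 0.00371 and 0.000908), and Cyp1a2 had one of 3.0 and was not (adjusted p = 0.0519). Of 3 Cyp1 genes 0 were called, of 6 Cyp2d genes 1 rose (Cyp2d26, log2 fold change 2.16, standard error 0.48, adjusted p = 0.0253), and of 10 other Cyp2 genes 2 rose.

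Por (chromosome 5, 135670033 to 135735326, plus strand), the reductase that passes electrons to all microsomal P450 enzymes, rose from 2431, 5479.9 and 3069 to 25686, 50639 and 25899.6 normalized counts (log2 fold change 3.22, standard error 0.45, adjusted p = 0.0142). It belongs to a list of 35 flavin monooxygenases and other oxidoreductases in which 17 genes rose and 0 fell, with a median log2 fold change of 1.65. Fmo2 went from 93.2, 203 and 166 to 1985, 2445 and 1531 (log2 fold change 3.69, standard error 0.33, adjusted p = 0.00713) and Fmo5 from 9383, 15757 and 10865 to 38477, 40564 and 40487 (log2 fold change 1.73, standard error 0.28, adjusted p = 0.0171). The 3 No-Trp mice were nearly level for Fmo5, and the control mice lay well below them. The quinone reductase gene Nqo1 and the epoxide hydrolase gene Ephx1, both picked after their values were seen, had log2 fold changes of 3.51 and 3.11. Adh1, the main alcohol dehydrogenase of liver, had one of 2.41 (adjusted p = 0.0405). Of 15 carboxylesterase genes 2 rose and 0 fell, with a median of 2.01, and Ces3a was highest in control mouse 102 with 15170 normalized counts.

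Conjugating enzymes attach glutathione, sugar or sulfate to drugs and steroids. Of 22 glutathione S-transferase genes 9 rose and 0 fell, with a median log2 fold change of 1.38. Gstm1 went from 3464, 8124 and 3549.6 to 23972, 23619 and 28402 normalized counts (log2 fold change 2.33, standard error 0.39, adjusted p = 0.0175) and Gstm4 from 105, 260.2 and 68.4 to 954, 1205 and 1594 (log2 fold change 3.12, standard error 0.51, adjusted p = 0.0179). Of 14 UDP-glucuronosyltransferase genes and partners 6 rose and 0 fell, with a median of 1.68. Ugt2b35 went from 131, 1210.3 and 266 to 4304, 5009 and 3861 (log2 fold change 3.04, standard error 0.79, adjusted p = 0.0357). Of 13 sulfotransferase genes 6 rose and 0 fell, with a median of 1.73. Sult1d1 went from 1416, 2388 and 1393 to 5969, 7512 and 6522 (log2 fold change 1.94, standard error 0.26, adjusted p = 0.0136), while Sult2a6 went from 0.88, 3.06 and 2.94, at most 4 reads in a mouse, to 37.9, 221 and 60.1 and was called higher. Of 15 other conjugating enzymes 6 rose and 0 fell, with a median of 1.28. Among these, Gnmt, which uses up methyl groups of S-adenosylmethionine, went from 3409, 7640.2 and 4306 to 24129, 47506 and 18931 (log2 fold change 2.56, standard error 0.47, adjusted p = 0.0196).

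Transporters of hepatocytes moved in both directions. Of 24 tested genes 8 rose and 3 fell, with a median log2 fold change of 1.05. Slco1a4 (chromosome 6, 141805440 to 141856199, minus strand), an uptake carrier of steroid conjugates and bile acids, rose from 303, 1074 and 294 to 8779, 11967 and 10397 normalized counts (log2 fold change 4.22, standard error 0.58, adjusted p = 0.0142). Slc10a1, the sodium-dependent bile acid carrier NTCP, rose from 1944, 5496 and 1953 to 8741, 13146 and 6551 (log2 fold change 1.60, standard error 0.48, adjusted p = 0.0488). The 3 genes that fell all encode pumps known for multidrug resistance. Abcb1b (chromosome 5, 8798147 to 8866315, plus strand), a P-glycoprotein gene, fell from 578, 798 and 865 to 197, 42.3 and 190.3 (log2 fold change −2.39, standard error 0.54, adjusted p = 0.0263), and its relative Abcb1a and the gene Abcc1, both picked after their values were seen, fell by 1.24 and 1.29 on the log2 scale. Control mouse 102 was not apart for these 3 genes. The bile salt export pump gene Abcb11 overlapped (log2 fold change 0.05, adjusted p = 0.919).

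Among 19 xenobiotic sensors and their cofactors 8 rose and 0 fell, with a median log2 fold change of 0.98. Nr1i3 (chromosome 1, 171213970 to 171220701, plus strand), which encodes the receptor CAR, went from 378, 1227 and 374 to 4639.7, 8767 and 4126 normalized counts (log2 fold change 3.15, standard error 0.58, adjusted p = 0.0196). Nr1i2, which encodes the receptor PXR, went from 1612, 1993 and 1489.6 to 4256, 4655 and 4837 (log2 fold change 1.43, standard error 0.17, adjusted p = 0.0127). Ahr, whose protein binds dioxins and several Trp metabolites, went from 306, 447 and 354 to 924, 1009 and 1039 (log2 fold change 1.42, standard error 0.19, adjusted p = 0.0136). The control mice were close to each other for Nr1i2 and Ahr, and the groups were far apart. In the 3 tested Cyp1 genes, which Ahr protein is known to induce, no change was called. Without control mouse 102 Cyp1a2 had a log2 fold change of 3.0 and was still not called (adjusted p = 0.0519). Nqo1, which the paper also names as a canonical AHR target, had the positive log2 fold change given above. Activity of Ahr protein was not tested.

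**Figure D3:**
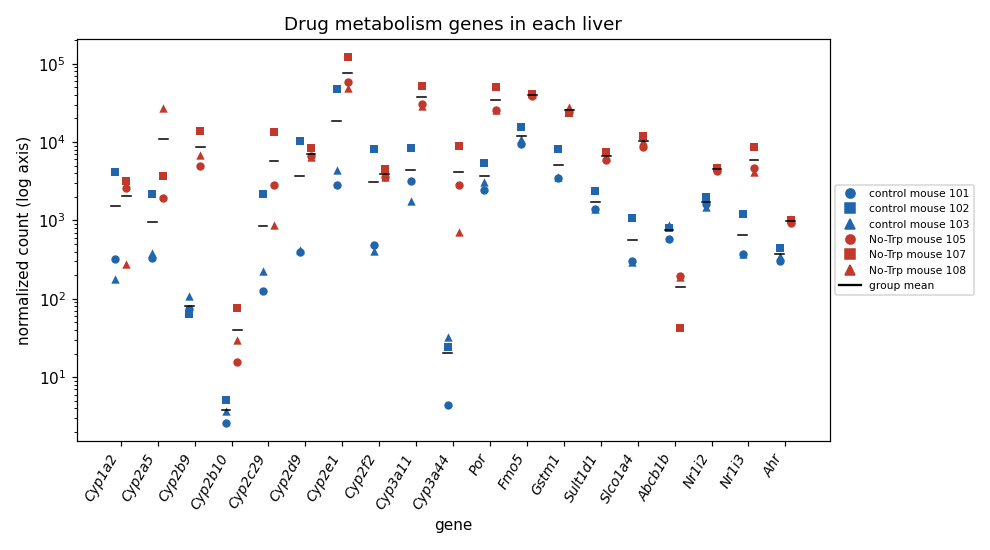
Normalized counts (y axis, log scale) of 19 drug metabolism genes (x axis) in each liver, with control mice in blue, No-Trp mice in red, a symbol for each mouse and a black bar at each group mean. Control mouse 102 lies near the No-Trp mice for Cyp1a2, Cyp2d9 and Cyp2f2 but among the other controls for Cyp2b9, Nr1i2 and Ahr, and Abcb1b is the gene for which the No-Trp mice lie below.

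Genes that rise in liver on fasting were called in a larger share than any other nutrient list. Of 41 tested genes 29 rose and 0 fell, and 35 had no overlap with the No-Trp mice above, a pattern found in 24.3% of all tested genes. Ppara, the receptor that drives many of these genes, went from 1051, 2484 and 1393 to 7519, 10972 and 5013 normalized counts (log2 fold change 2.25, standard error 0.41, adjusted p = 0.0196), and its coactivator gene Ppargc1a from 168, 360.2 and 390.1 to 847, 1161 and 654 (log2 fold change 1.54, standard error 0.36, adjusted p = 0.028). Cyp4a31 (chromosome 4, 115563649 to 115579015, plus strand), a fatty acid hydroxylase, went from 4.4, 11.2 and 5.89 to 662, 975 and 514 (log2 fold change 6.65, standard error 0.44, adjusted p = 0.00279). The gluconeogenic genes were less clear. Pck1 held 1099.6, 22807 and 2683 and then 70330.4, 148524 and 49094 normalized counts, with control mouse 102 closest to the No-Trp mice (adjusted p = 0.0744), and G6pc overlapped, with 1124, 8472 and 2223 and then 7219.9, 12809 and 7371. Without mouse 102 both were called higher, with log2 fold changes of 5.55 and 2.43.

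The ATF4 pathway did not move as 1 group. Of 37 tested genes 8 rose and 1 fell, which is 21.6% and 2.7%, and the median log2 fold change was −0.04. Fgf21 (chromosome 7, 45613886 to 45615490, minus strand), a hormone released by liver on fasting and on lack of amino acids, rose from 12.3, 22.4 and 15.5 to 225, 397 and 263 normalized counts (log2 fold change 4.14, standard error 0.37, adjusted p = 0.00713). Trib3, a pseudokinase induced by ATF4, rose from 255, 146 and 195 to 492, 554 and 2343 (log2 fold change 2.50, standard error 0.65, adjusted p = 0.0357), with mouse 108 far above the other No-Trp mice. Sesn2, which encodes a leucine sensor, rose from 217, 193 and 266 to 459, 559 and 655 (log2 fold change 1.30, standard error 0.22, adjusted p = 0.0178). The other rises were Atf5, Herpud1, Cebpb, Vegfa and Cth, with log2 fold changes from 1.21 to 2.18, and these 5 were picked after their values were seen.

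Other genes of the pathway were mixed. In 11 of the 37 all No-Trp mice lay above all control mice, and in 8 all lay below. Both counts are near the share over all tested genes, 24.3% in each direction. Asns, which makes asparagine, held 5747, 3493 and 4968 normalized counts in the control mice and 2405, 917 and 3396 in the No-Trp mice, so the groups did not overlap, but it did not pass the test (log2 fold change −1.08, standard error 0.45, adjusted p = 0.116). Slc7a1, a carrier of cationic amino acids, fell from 2155, 1712 and 2811 to 803, 255 and 1054 (log2 fold change −1.66, standard error 0.49, adjusted p = 0.0467). Ddit3, the stress factor CHOP, held 201, 166 and 188 and then 201, 258 and 296 normalized counts and was not called. Cytosolic aminoacyl-tRNA synthetase genes, which ATF4 also drives, had 0 rises and 1 fall among 20, with a median log2 fold change of −0.52, and in 12 of the 20 all No-Trp mice lay below all control mice, against 24.3% of tested genes. Vars, for valine, fell from 5726, 5096 and 6439.8 to 3139, 2005 and 3065 (log2 fold change −1.07, standard error 0.22, adjusted p = 0.023). Wars, the synthetase for Trp, held 1424, 1401 and 1501 and then 1153, 833 and 1250.4 normalized counts (log2 fold change −0.42, adjusted p = 0.122). The list levels also differed between the No-Trp mice, since the median ATF4 gene of mouse 108 lay 0.79 above the control mean on the log2 scale, while those of mice 105 and 107 lay at −0.40 and −0.30.

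**Figure D4:**
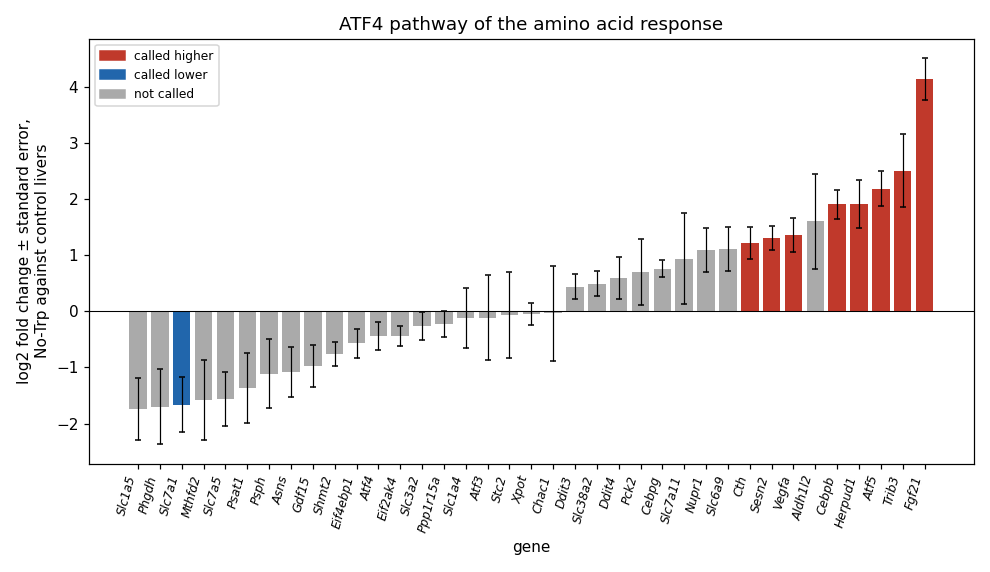
Log2 fold change with its standard error (y axis, No-Trp against control, edgeR) of the 37 genes of the ATF4 pathway list (x axis), ordered by size, with called genes in red (higher) or blue (lower) and the others in grey. Fgf21 and Trib3 are at the right end with 4.14 and 2.50, and Slc7a1, at −1.66, is the gene called lower.

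Letters of an ATF4 site, TGATGNAAT on either strand, stood in 0.969% of all 27025 promoters and 0.491% of those of tested genes. In the nutrient sensing program 5 of 171 promoters held them (2.92%), those of Fgf21, Nupr1, Aars, Gars and Iars. Of these 5 genes Fgf21 rose, and Aars, Gars and Iars encode synthetases, of which none rose. The stretches of Fgf21 and of Nupr1, a stress-induced chromatin protein, are shown since the genes share the letters and differ in outcome, with Fgf21 at chr7:45615572-45615680 (minus strand) and Nupr1 at chr7:126625523-126625631 (minus strand). The capitals mark the match, which lies on the strand opposite to the gene in both.
Fgf21: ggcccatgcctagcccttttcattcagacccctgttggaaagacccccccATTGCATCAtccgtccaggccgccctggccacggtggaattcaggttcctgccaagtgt
Nupr1: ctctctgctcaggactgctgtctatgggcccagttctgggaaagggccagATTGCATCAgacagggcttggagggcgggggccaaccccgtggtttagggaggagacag
Nupr1 held 121, 66.3 and 83.2 normalized counts in the control mice and 126, 158 and 292 in the No-Trp mice, so that the groups were close but did not overlap, and it was not called (log2 fold change 1.09, standard error 0.40, adjusted p = 0.0805).

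Of 41 genes of amino acid sensing at mTORC1, 2 rose and 2 fell, with a median log2 fold change of 0.06. Deptor, an inhibitor of mTOR, rose from 1641, 2434 and 1926 to 3615, 5802 and 3455 normalized counts (log2 fold change 1.10, standard error 0.26, adjusted p = 0.0279), and the other rise was Sesn2. Both falls were in Rag GTPase genes. Rragb (chromosome X, 153139981 to 153171943, plus strand) fell from 72.1, 129 and 101 to 17.9, 5.72 and 10 (log2 fold change −3.14, standard error 0.48, adjusted p = 0.0163), and Rragd, picked after its values were seen, from 1058, 767 and 1181 to 296, 62.9 and 213 (log2 fold change −2.39, standard error 0.52, adjusted p = 0.0251). For both genes all No-Trp mice lay below all control mice, with mouse 107 the lowest. Among 23 genes of AMPK, sirtuins and FOXO factors 1 rose, Ppargc1a. Sirt3 and Foxo1 had an adjusted p of 0.0264 and 0.0331, but their log2 fold changes of 0.88 and 0.87 were under the threshold.

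Genes of the insulin and carbohydrate response rose in 7 of 30 and fell in 1, with a median log2 fold change of 0.91. Fasn, the fatty acid synthase, was the fall, from 12188, 18259 and 14712 to 7771, 7206 and 4747 normalized counts (log2 fold change −1.19, standard error 0.27, adjusted p = 0.0263). Srebf1, its regulator, overlapped, with 3015, 3773 and 2587 and then 2897, 6629 and 2401. Igf1 held 689, 4609 and 506 and then 6809.6, 9642 and 3829.9 and was not called, but without control mouse 102 it was (log2 fold change 3.49, adjusted p = 0.00324). The estrogen receptor gene Esr1 went from 21.1, 156 and 19.1 to 516, 890.5 and 315 (log2 fold change 3.15, standard error 0.89, adjusted p = 0.0434).

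Tdo2 (chromosome 3, 81957090 to 81976202, minus strand), the enzyme by which hepatocytes open the ring of Trp, rose from 518, 6283 and 637 to 36515, 55059.6 and 39719 normalized counts (log2 fold change 4.14, standard error 1.05, adjusted p = 0.0342). Control mouse 102 held about 10 times as much as the other controls but stayed far below the No-Trp mice. In the Trp catabolism list 3 of 18 tested genes rose and 0 fell, with a median log2 fold change of 0.72. The other rises were Afmid, which follows Tdo2 in the kynurenine pathway, and Naprt1, which makes NAD precursor from nicotinic acid (log2 fold changes 2.19 and 1.41, picked after their values were seen). Ido2 overlapped, and was called higher without control mouse 102 (log2 fold change 4.76, adjusted p = 0.00227). Il4i1, which can convert Trp to indole 3-pyruvate, had too few reads to be tested.

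The diet lacks Trp, so the Trp codon content (UGG) of the expressed genes was set beside their changes. Across 13479 tested genes with a coding sequence, log2 fold change and UGG codons per 1000 codons had a Spearman correlation of 0.0968, a description across genes that share libraries and are not replicates. In 4 groups of about equal size, the 3370 genes with the fewest UGG codons were called higher in 6.88% and lower in 8.69% of cases, and the 3370 with the most in 11.5% and 6.17%. Median content was 12.6 per 1000 in genes called higher, 9.84 in genes called lower and 10.9 in all tested genes. Weighted by each gene's level per length, the coding pool held 10.97, 11.2 and 10.7 UGG codons per 1000 in the control mice and 11.6, 11.8 and 11.4 in the No-Trp mice, so the groups did not overlap. With plasma protein genes left out, the values were 10.8, 11.02 and 10.5 against 11.4, 11.7 and 11.2, again without overlap. Plasma protein genes made up 6.53%, 15.2% and 6.08% of the pool in the control mice and 20.2%, 28.3% and 15.9% in the No-Trp mice.

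Hepatocytes around the central and the portal vein of the lobule express different enzymes, and genes of both zones were called. Around the central vein 6 of 21 genes rose and 0 fell (median log2 fold change 1.42), and around the portal vein 10 of 21 rose and 1 fell (median 1.26). Among the pericentral leads Glul, glutamine synthetase, overlapped, with 2504, 6055 and 3030.0 and then 5525, 7795 and 5050.3 normalized counts, and was called without control mouse 102 (log2 fold change 1.14, adjusted p = 0.0203). Oat, which breaks down ornithine, held 2707, 3273 and 2386 and then 4861, 5486 and 5228 (log2 fold change 0.90, adjusted p = 0.0213), which was under the fold threshold. Of the periportal genes, Arg1, the last enzyme of the urea cycle, rose from 6255, 10582 and 4955 to 40898, 68952 and 52822 (log2 fold change 2.90, standard error 0.39, adjusted p = 0.0138). Hal, which degrades histidine, rose from 489, 1027 and 460.0 to 3842, 5292 and 3551 (log2 fold change 2.68, standard error 0.36, adjusted p = 0.0138), and Sds, which degrades serine, from 2463, 2625 and 1763 to 8152, 9257 and 9733 (log2 fold change 1.99, standard error 0.22, adjusted p = 0.011). The periportal fall was Cdh1, E-cadherin, from 4312, 3861 and 4815 to 2093, 921 and 1768 (log2 fold change −1.44, standard error 0.30, adjusted p = 0.0232).

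The list of oncofetal liver genes had 0 rises and 4 falls among 22, with a median log2 fold change of −0.99. Its leads Afp, Gpc3, Igf2 and H19 were not called with all mice, so the falls lay in other members. Afp was called lower without control mouse 102, as given above. Slc16a3, a lactate exporter, fell from 247, 88.8 and 839 to 51.5, 53.7 and 84.4 normalized counts (log2 fold change −2.64, standard error 0.78, adjusted p = 0.0485), and the other falls were Hk2, Pkm and Mest, picked after their values were seen (−1.83, −1.74 and −1.51). The call of Slc16a3 was lost when any mouse but 102 was left out. H19 held 434820.0, 323057 and 396414 and then 165012, 33492 and 196317, and Igf2 held 50132, 83345 and 73752 and then 37831, 6845 and 38870.2. For both, all No-Trp mice lay below the controls and mouse 107 was far the lowest, and neither passed the test (adjusted p = 0.117 and 0.155). Over the alternative fits the adjusted p ran from 0.0176 to 0.238 for H19 and from 0.0571 to 0.289 for Igf2. Gpc3 overlapped. Cholangiocyte and progenitor genes had 1 rise and 1 fall among 18 and a median of 0.22. The defining bile duct genes Krt19, Sox9 and Epcam overlapped between the groups, at 53.1 to 363 normalized counts. The rise was Krt23, from 33.4, 22.4 and 25.8 to 104, 477 and 103 (log2 fold change 3.06, standard error 0.68, adjusted p = 0.0253), and the fall was the progenitor marker Cd24a, from 680.0, 3246 and 1968 to 257, 295 and 482 (log2 fold change −2.51, standard error 0.56, adjusted p = 0.0268).

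Erythroid genes fell in 18 of 21 tested genes and rose in 0, with a median log2 fold change of −4.05, the lowest of the 45 lists but for the 3 major urinary protein genes. Their summed level was 7917, 25160 and 18101 normalized counts in the control mice and 2728, 2474 and 2990 in the No-Trp mice. Alas2, the heme synthesis enzyme of erythroid cells, fell from 301, 1898 and 1779.6 to 88.4, 105 and 124 normalized counts (log2 fold change −3.65, standard error 0.68, adjusted p = 0.0202). Tfrc, the transferrin receptor, which other cells express too, fell from 5609.6, 4532 and 5278 to 2118, 1816 and 1836 (log2 fold change −1.42, standard error 0.16, adjusted p = 0.0125). Control mouse 101 had the lowest control level of Alas2 and mouse 102 the highest, and no No-Trp mouse reached the level of mouse 101. Of the globin genes in the list, Hba-a2 had 2 reads in mouse 108, and it and the other 5 are otherwise listed at 0. Close copies stand within the alpha and within the beta globin genes. The part of this change, and of that in the oncofetal genes, in the hepatocyte results was not tested.

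Genes of neutrophils and their precursors had 0 rises and 3 falls among 16, with a median log2 fold change of −1.83. Prtn3, a protease made in promyelocytes, fell from 895, 443 and 436 to 65.2, 2.29 and 102 normalized counts (log2 fold change −3.40, standard error 0.93, adjusted p = 0.0401). Mpo held 333, 1446 and 534 and then 68.4, 8 and 165 (adjusted p = 0.0501), and S100a8, which mature neutrophils express, overlapped, with 898, 354 and 819.9 and then 97.8, 65.2 and 526. Mouse 108 lay nearer to the controls than mice 105 and 107 did, and without it Mpo and S100a8 were called lower, with log2 fold changes of −4.31 and −3.08.

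Endothelial genes, sinusoidal and general ones together, rose in 11 of 28 and fell in 0, with a median log2 fold change of 0.99. Clec4g, a lectin of sinusoidal endothelium, went from 161, 488 and 178 to 919, 1273 and 1034 normalized counts (log2 fold change 1.97, standard error 0.44, adjusted p = 0.0262). Rspo3, which amplifies Wnt signals to hepatocytes, went from 11.4, 40.8 and 12.5 to 115, 149 and 83 (log2 fold change 2.44, standard error 0.55, adjusted p = 0.0261), and Wnt2, picked after its values were seen, from 17.6, 32.7 and 14 to 94.7, 101 and 48.6 (log2 fold change 1.94, standard error 0.46, adjusted p = 0.0283). The general endothelial gene Pecam1 overlapped, with 344, 551 and 613 and then 569, 650.4 and 469, and Stab2 and Plvap were higher in each No-Trp mouse without a call. Without control mouse 102 Stab2 and Plvap were called, with log2 fold changes of 1.16 and 1.03.

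Kupffer cell and macrophage genes had 1 rise and 0 falls among 23, with a median log2 fold change of 0.06. The rise was Cd163, the hemoglobin scavenger receptor, from 91.5, 213 and 107 to 395, 293 and 383 normalized counts (log2 fold change 1.38, standard error 0.36, adjusted p = 0.0331). Clec4f held 1397, 2663 and 1412 and then 2953, 2029 and 3834, and Emr1, the F4/80 antigen, held 119.6, 339 and 411 and then 455, 207 and 245, both with overlap. Vsig4 held 394, 651 and 448 and then 1048, 660 and 1023 without overlap, but its log2 fold change of 0.87 was under the threshold. Marco overlapped (log2 fold change 1.70, adjusted p = 0.156). Without control mouse 102 Clec4f, Vsig4 and Marco were called higher, with log2 fold changes of 1.06, 1.10 and 2.68, and Emr1 was not. Stellate cell and fibroblast genes rose in 6 of 26 and fell in 1, with a median of 0.46. Acta2, the actin of activated stellate cells and smooth muscle, fell from 626, 435 and 348 to 139, 158 and 142 (log2 fold change −1.68, standard error 0.26, adjusted p = 0.0163). Reln, a gene of quiescent stellate cells, rose from 109, 532 and 242 to 1504, 1547 and 722 (log2 fold change 2.10, standard error 0.59, adjusted p = 0.0423), and Col1a1 overlapped, with 3024, 3668 and 3625 and then 2816, 3456 and 2126.

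Lymphoid and platelet gene lists held few calls. Of 7 tested B cell and plasma cell genes 0 were called, and of 15 T and NK cell genes 1 fell, Lck. Of 12 dendritic cell and antigen presentation genes 1 rose, Clec9a. Of 10 megakaryocyte and platelet genes (median log2 fold change −0.67) 1 rose, Clec1b, from 141, 174 and 109.7 to 379.7, 313 and 405 normalized counts (log2 fold change 1.37, standard error 0.25, adjusted p = 0.0195), while the platelet gene Pf4 held 111, 54.1 and 70.7 and then 25.2, 32 and 51.5 without a call. Which cells expressed Clec1b was not tested, so its rise cannot be assigned to platelets. In the adipocyte list 2 of 7 tested genes rose and 1 fell, with a median log2 fold change of −0.37, and of 1.52 without control mouse 102. Adipoq and Plin1 were too low to be tested, Fabp4 fell from 519, 581 and 733 to 339.7, 238 and 308 (log2 fold change −1.05, standard error 0.22, adjusted p = 0.0231), and Cidec, which liver also expresses, rose from 46.6, 79.6 and 75.1 to 323, 233 and 1083 (log2 fold change 3.02, standard error 0.62, adjusted p = 0.0235). The other rise was Plin4, picked after its values were seen. Of 15 pancreatic acinar genes 1 could be tested, Cela1, which overlapped.

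**Figure D5:**
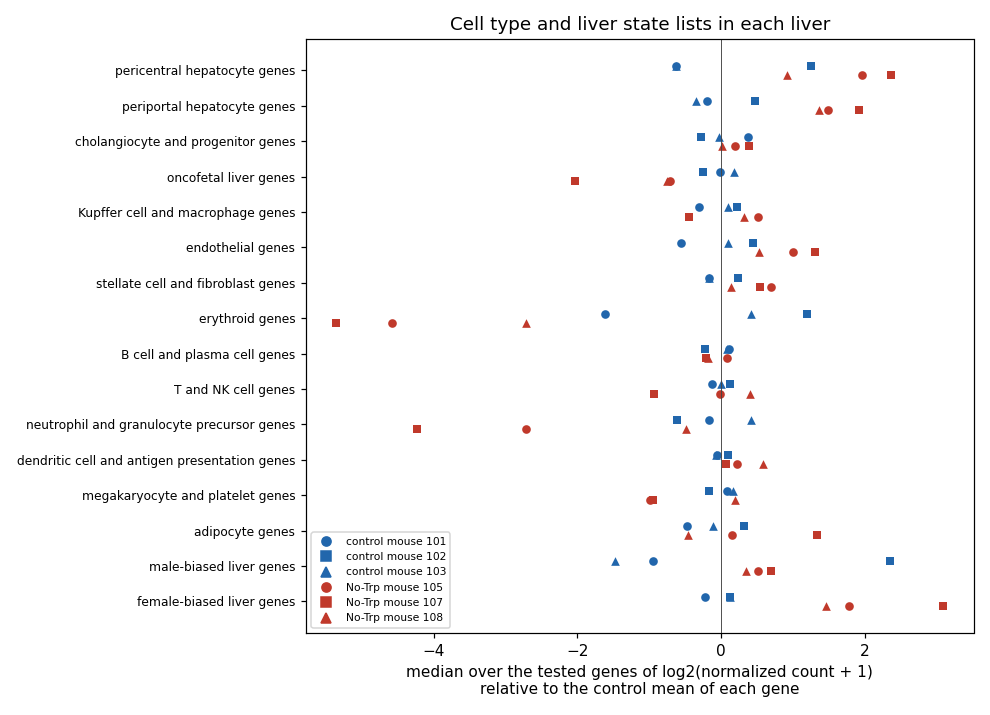
Median over the tested genes of each cell type or liver state list (y axis) of log2(normalized count + 1) minus the control mean of the gene (x axis), with control mice in blue, No-Trp mice in red and a symbol for each mouse. The No-Trp mice lie furthest left for erythroid genes, and for male-biased genes control mouse 102 lies at 2.36, to the right of all other mice.

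Many enzymes of mouse liver are made in larger amounts by males or by females. Among 40 female-biased genes 25 rose and 0 fell, with a median log2 fold change of 2.07. All 6 mice expressed the Y-linked gene Ddx3y, and had some counts of Xist, as given above. Of the 40, 18 also stand in the drug metabolism lists, where 13 rose, and of the 22 others 12 rose. Tox (chromosome 4, 6686353 to 6991557, minus strand), a transcription factor of this group, held 16.7, 19.4 and 22.8 normalized counts in the control mice and 530.1, 495 and 488 in the No-Trp mice (log2 fold change 4.67, standard error 0.23, adjusted p = 0.00169). Values within each diet were close together, control mouse 102 included. Male-biased genes had 3 rises and 0 falls among 25 and a median of −0.31. Without control mouse 102 they had 13 rises and 1 fall and a median of 1.59, so that the direction of the list rested on that mouse. Cyp4a12a, a male-specific hydroxylase, held 353, 2981 and 186 and then 130.4, 49.2 and 226 (adjusted p = 0.0822), and Elovl3 held 0.88, 111 and 1.47 and then 17.9, 52.6 and 81.5 and was called higher when mouse 102 was left out, with an adjusted p of 0.00998 and a log2 fold change of 5.24. Relative to the control mean, the median male-biased gene of control mouse 102 was 2.36 higher on the log2 scale, those of mice 101 and 103 lay at −0.95 and −1.47, and those of the No-Trp mice at 0.35 to 0.69. Mouse 102 thus had the highest level of male-biased genes of all 6 livers.

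Further large changes lay outside the lists, in genes named by a rank that required no overlap between the groups. Mfsd2a (chromosome 4, 122946850 to 122961188, minus strand), a carrier of lysophospholipids, rose from 58.1, 245 and 69.9 to 4016, 5909.7 and 6296 normalized counts (log2 fold change 5.45, standard error 0.64, adjusted p = 0.0129). E130309F12Rik (chromosome 4, 49059273 to 49340259, plus strand), annotated as Plppr1, rose from 1.76, 5.1 and 3.68 to 184, 341 and 103 (log2 fold change 5.87, standard error 0.62, adjusted p = 0.011). Both were low in every control mouse. Tff3 (chromosome 17, 31125306 to 31129646, minus strand), a secreted trefoil peptide, fell from 430.2, 510.2 and 376 to 34.7, 13.7 and 28.6 (log2 fold change −4.09, standard error 0.37, adjusted p = 0.00713), with little spread among the controls. Serpina12, an insulin-sensitizing adipokine, fell from 100.3, 1179 and 138 to 35.8, 42.3 and 24.3 (log2 fold change −3.77, standard error 1.03, adjusted p = 0.0401). Without control mouse 102, which held 1179 normalized counts, its log2 fold change was −1.80. Dmtn, known from red blood cells, fell by 3.88 on the log2 scale, alongside the erythroid list.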

How the data were processed

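Polyadenylated RNA of 1 liver per mouse was sequenced. The values deposited are raw counts of reads for each gene. The authors trimmed reads with Trim Galore before aligning to mm10 with STAR (2.7.2b), sorting with SAMtools (1.9) and counting with HTSeq, and did not normalize the deposited counts. The strand setting and the rule for overlapping genes are not given in the sources used here, so counts of overlapping genes and of near-identical copies are uncertain. Rows of reads left out by the counting were removed. They hold 11.5% to 18.3% of the reads of a liver on no gene and 1.74% to 2.28% on several genes.

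From the counts of the 6 livers, diets were compared with the quasi-likelihood test of edgeR 4.0.16 under R 4.3.3 (filterByExpr, TMM factors, robust fit, two-sided, without covariates), with Benjamini-Hochberg adjustment over all 14122 genes tested and calls at adjusted p no larger than 0.05 with a log2 fold change of 1 or more in either direction. A standard error is the log2 fold change divided by the square root of F. Normalized counts are scaled to the mean effective library size. The spread between mice that edgeR estimated was 31.6% of a gene's level, and chi-square per degree of freedom between replicate libraries was 45.0 to 291, so all 6 were kept as separate samples. The smallest two-sided permutation p for groups of 3 and 3 is 0.1.

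The members and lists were chosen with earlier results of these data known. No set test was run, and lists are described by counts and medians beside those of all tested genes. Genes named are the leads of each list, and in each list the largest called rise and fall. Called genes of rank 6 to 20 by size in each direction were named too. Both the largest changes and the ranked genes needed a mean normalized count of 100 or more in the diet with the higher level. Ranked genes also had to have all No-Trp mice on the same side of all control mice, so their clean separation was selected for. Any other gene named was chosen after its values were seen. Some genes that the rule names are not reported here. The alternatives were DESeq2 1.42.0, RLE factors, library totals, other filters on low counts, no threshold on the fold change, RNAs without a poly(A) tail left out, 1 fit over all 12 libraries, resubmission as a covariate, and each mouse left out. Of 24062 symbols 23684 were matched to GENCODE M21 (GRCm38, named mm10), 934 of them through an older symbol. Promoters are those of RefSeq on GRCm38.p6, with 11203 tested genes matched. Trp codons were counted in GENCODE coding sequences. The levels per length in that count are normalized counts divided by the length of the transcript used.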

Additional observations from a re-analysis of the deposited data

How the results depend on the processing

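No paired analysis was possible because the 2 diet groups share no animal numbers. All 2337 called genes kept their sign under every alternative in which they were tested. The alternatives reuse the livers from which these genes were called by size, so kept signs are not separate support. The alternative without a threshold on the fold change is the main fit itself. With each mouse left out in turn, called genes ranged from 7 to 1959 higher and from 1 to 1248 lower. In the plasma protein program the ranges were 0 to 86 higher and 0 to 6 lower, in drug metabolism 1 to 148 and 0 to 4, in nutrient sensing 3 to 70 and 0 to 9, and in the cell mixture lists 3 to 106 and 0 to 36. The highest counts of rises came without control mouse 102, and the lowest counts of both without control mouse 103, where the unadjusted p of 4363 genes was under 0.05 (5901 with the full set). DESeq2 called 65 plasma protein genes higher, 5 drug metabolism genes lower and 10 nutrient sensing genes lower. At least 10 counts in every library left 2 plasma protein falls and 15 cell mixture falls. With library totals, which moved the median of all log2 fold changes to −0.30, 732 genes were higher and 13 nutrient sensing genes lower. Without a threshold on the fold change 1696 genes and 15 nutrient sensing genes were lower. The fit over all libraries gave 9 plasma protein and 8 nutrient sensing falls. The cause of these differences was not tested.

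Of the 180 tested genes chosen by rule, 18 changed sign in some alternative, and none of these was called. With library totals the log2 fold change was −0.29 for Abcb11, −0.23 for Emr1, −0.018 for Itga2b, −0.12 for Krt19, −0.17 for Pecam1, −0.22 for Sox9 and −0.016 for Srebf1. With a mouse left out, these ranges of log2 fold change crossed 0. They ran for Abcb11 from −0.34 to 0.24, C6 from −2.60 to 0.83, C8a from −1.99 to 0.17, Ces3a from −2.52 to 2.19, Cyp1a2 from −0.15 to 3.0, Cyp2f2 from −0.20 to 3.10, Elovl3 from −0.17 to 5.24, Emr1 from −0.36 to 0.38. They also ran for Epcam from −0.70 to 0.064, Gsta2 from −0.33 to 0.89, Igj from −0.99 to 0.091, Krt19 from −0.25 to 0.94, Orm1 from −1.19 to 0.62, Pecam1 from −0.050 to 0.31, Serpina1e from −1.58 to 1.59, Sox9 from −0.11 to 0.26, Srebf1 from −0.25 to 0.61.
With 14865881 reads or more in each liver, depth limited the genes with the fewest reads, which were not tested.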
